A study of Homo sapiens with 7 samples.

Results

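The clustered protocadherin genes were examined in HEK-293 cells, an established human embryonic kidney line, after 48 h of acidosis or of treatment with SRPIN340. Members were all genes of the deposited table whose symbol begins with PCDHA, PCDHB or PCDHG followed by a number or by A, B or C and a number. The rule found 53 of 19978 genes, of which 15 belong to the alpha cluster, 16 to the beta cluster and 22 to the gamma cluster. The control group (2 samples) was kept in DMEM of pH 7.4 with the vehicle DMSO, the acidosis group (3 samples) in DMSO-containing DMEM that had been acidified to pH 6.6, and the SRPIN340 group (2 samples) at pH 7.4 with 10 µM of the inhibitor. SRPIN340 inhibits SRPK kinases, which phosphorylate SR-rich splicing factors. The methods give DMSO at the same concentration in all 3 groups, and the samples are biological repeats of 1 cell line. Poly(A) RNA was sequenced, and the values are estimated counts per gene.

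Protocadherins are cadherin-related adhesion proteins of the cell surface, best known from neurons, where each cell displays a small set of the clustered isoforms and uses it to tell its own processes from those of other cells. In the alpha and gamma clusters each gene has a large first exon of its own, with its own promoter, which is spliced to constant exons that all genes of that cluster share. The first exon encodes the extracellular, transmembrane and proximal cytoplasmic parts, and the constant exons the common cytoplasmic end. Beta genes have no constant exons. The last genes of the alpha and gamma clusters (PCDHAC1, PCDHAC2, PCDHGC3, PCDHGC4 and PCDHGC5) are called C-type and are controlled differently from the alternate genes before them. CTCF and cohesin bind alternate promoters and their enhancers and join them in loops.

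The annotation shows this layout. On chromosome 5 of GRCh38 the alpha genes span chr5:140786136-141012347, the beta genes chr5:141051374-141249365 and the gamma genes chr5:141330514-141512977, all on the plus strand (GENCODE release 44). Every alpha canonical transcript has 4 exons and ends in the same 2869 bases. Every gamma transcript has 4 exons and ends in the same 2177 bases. All 16 beta transcripts have 1 exon and share no common end. The splice joints of the leading expressed alpha and gamma genes are shown because the part in capitals is the same in every gene of a cluster. A read of the capitals alone does not tell these genes apart. A read that reaches far enough into the lower-case part may do so. In each line the last 30 bases of the gene's own first exon stand in lower case and the first 30 bases of the second, shared exon in capitals (chr5:140978949-140979007 for alpha and chr5:141494807-141494865 for gamma).
PCDHA10: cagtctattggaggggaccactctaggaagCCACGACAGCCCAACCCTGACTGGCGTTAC
PCDHAC2: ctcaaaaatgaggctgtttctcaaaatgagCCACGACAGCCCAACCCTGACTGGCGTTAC
PCDHGC3: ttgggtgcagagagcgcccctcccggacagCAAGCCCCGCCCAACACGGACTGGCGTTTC
PCDHGB5: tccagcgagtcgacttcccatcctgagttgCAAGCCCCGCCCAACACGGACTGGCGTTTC
PCDHGA11: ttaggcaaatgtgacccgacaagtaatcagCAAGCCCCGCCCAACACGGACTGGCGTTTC

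How far a gene can be told from all others was counted on the reference transcripts as the share of its 31-base words that occur in no transcript of another gene. For genes outside the clusters a match on either strand counted as shared. Some of those shared words may thus lie on the opposite strand, which was not separated. The share was lowest in the alpha cluster, with a median of 34.3% (range 0.5% to 51.6%). It was 46.95% in the gamma cluster (35.1% to 54.9%) and 74.75% in the beta cluster (37.2% to 92.0%). PCDHA1 had 0.5%, with 60.6% of its words shared with other alpha genes and 46.7% with a long non-coding RNA. Its estimate is therefore uncertain. PCDHB2, the beta gene with the highest estimate, had 37.2%, the lowest of its cluster. On either strand, it shares 43.2% of its words with PCDHB1-AS1, an annotated long non-coding RNA. Estimates of alpha and gamma genes rest on the first exon, and reads of the constant exons were divided among the genes by the quantifier. Sums over a cluster depend less on that division.

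**Figure D1:**
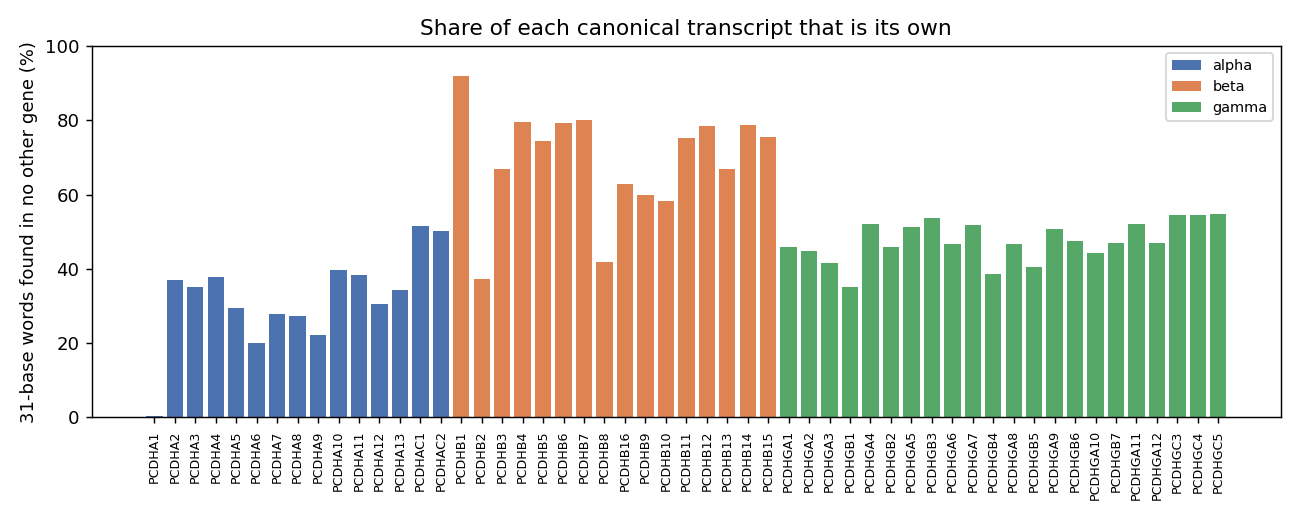
Share of 31-base words of each member's canonical transcript found in no transcript of another gene (y axis, percent), for the 53 members in chromosomal order (x axis), coloured by cluster. Beta genes stand highest with a median of 74.75%, and PCDHA1 is at 0.5%. For genes outside the clusters a match on either strand counted as shared.

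Promoters of the 3 clusters hold a conserved element with the core CGCT. RefSeq promoters (250 bases before to 50 after the start, GRCh38.p14) were matched for 47 of the 53 members, 13 alpha, 14 beta and 20 gamma. The 9-letter word held by most alpha promoters was GATGTCGCT, in 9 of 13. That word was in 0.105% of all 35097 promoters. The most frequent beta word was GGTGGCGCT, in 13 of 14 beta promoters and 0.501% of all. PCDHB1 was the beta promoter without it. The most frequent gamma word, GCGCCGCTG, was in 10 of 20 gamma promoters and 1.282% of all. Each word was counted on both strands and was found in no promoter of the other 2 clusters, and all 3 words contain CGCT. The words were chosen as the most frequent ones, so the counts are descriptions. The core alone is not particular to the clusters, since it was in 12 of 13 alpha, 14 of 14 beta and 20 of 20 gamma promoters and in 69.997% of all. The windows from base -110 to base -31 of the members described next are shown with CGCT in capitals (plus strand).
PCDHA10 (chr5:140855787-140855866): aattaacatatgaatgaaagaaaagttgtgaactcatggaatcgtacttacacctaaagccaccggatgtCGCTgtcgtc
PCDHAC2 (chr5:140966366-140966445): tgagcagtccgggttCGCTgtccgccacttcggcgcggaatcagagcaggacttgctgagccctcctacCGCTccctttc
PCDHB1 (chr5:141051264-141051343): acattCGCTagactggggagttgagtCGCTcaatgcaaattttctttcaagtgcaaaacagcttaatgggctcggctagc
PCDHB2 (chr5:141094505-141094584): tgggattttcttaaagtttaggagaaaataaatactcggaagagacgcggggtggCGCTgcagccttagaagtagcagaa
PCDHGC3 (chr5:141475856-141475935): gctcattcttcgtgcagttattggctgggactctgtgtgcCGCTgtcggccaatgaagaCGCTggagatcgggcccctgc
PCDHGB5 (chr5:141397837-141397916): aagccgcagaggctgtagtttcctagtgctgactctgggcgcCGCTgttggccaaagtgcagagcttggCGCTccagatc
PCDHGA11 (chr5:141420941-141421020): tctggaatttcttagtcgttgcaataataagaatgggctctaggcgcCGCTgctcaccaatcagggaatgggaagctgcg
PCDHGC4 (chr5:141484920-141484999): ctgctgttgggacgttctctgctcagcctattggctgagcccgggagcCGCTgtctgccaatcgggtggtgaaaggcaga
PCDHA10 carries the alpha word at base -45 and PCDHB2 the beta word at base -60. PCDHGB5 and PCDHGA11 carry the gamma word at bases -72 and -67. The C-type promoters of PCDHAC2, PCDHGC3 and PCDHGC4 hold the core without the word of their cluster. This is not particular to C-type genes, since promoters of alternate gamma genes such as PCDHGA2 and PCDHGA4 do the same. The promoter matched to the alternate alpha gene PCDHA11 does so too, but it lies inside the annotated gene and may miss the word.

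Library totals ranged from 21788457 to 24110460 counts in control and SRPIN340 samples and were 21370143, 13615816 and 14870301 in acidosis. The 100 most abundant genes held 15.15% to 15.37% of counts in control and SRPIN340 and 24.06% to 24.81% in acidosis. CPM, read counts scaled to library size, were therefore computed with TMM-scaled totals, under which the median log2 fold change of all 14863 tested genes in acidosis was -0.05. Scaling by total count alone moved that median to -0.63. The 6 markers fixed for HEK-293 (VIM, NEFL, NEFM, PAX2, EYA1 and LHX1) were all tested. PAX2, at 1.2 to 2.46 CPM in acidosis, was the lowest. In acidosis VIM and NEFM were called higher and PAX2 lower. Of 8 markers of other cell types, CD3E was at 0 in every library, PTPRC, HBB, COL1A2 and ALB lay under 1 CPM and GFAP reached 1.36 CPM. COL1A1 (30.8 CPM in control, 62.3 in acidosis) and EPCAM (144 and 262 CPM) were expressed. Of the 4 tested markers of other cell types, COL1A1 and PTPRC (0.163 CPM in control, 0.707 in acidosis) were called higher in acidosis, and their part in the results was not tested. In bulk RNA, fewer cells that express a gene and less RNA per cell cannot be told apart.

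Few members were expressed. In all 7 libraries 10 members had no more than 3 estimated counts, 6 of them alpha and 4 beta. PCDHA5 and PCDHA7 were at 0 throughout. At least 10 counts in every library were reached by 7 members, 2 alpha, 1 beta and 4 gamma. Within groups, 17 members had at least 10 counts in both control libraries, 18 in both SRPIN340 libraries and 9 in all 3 acidosis libraries. Acidosis replicates 2 and 3 were also the shallowest libraries. The expression filter passed 22 members (4 alpha, 3 beta and 15 gamma), and the other 31 were not tested. PCDHGA8 passed it through 2 acidosis libraries and 1 control library, and PCDHGA5 through no acidosis library.

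**Figure D2:**
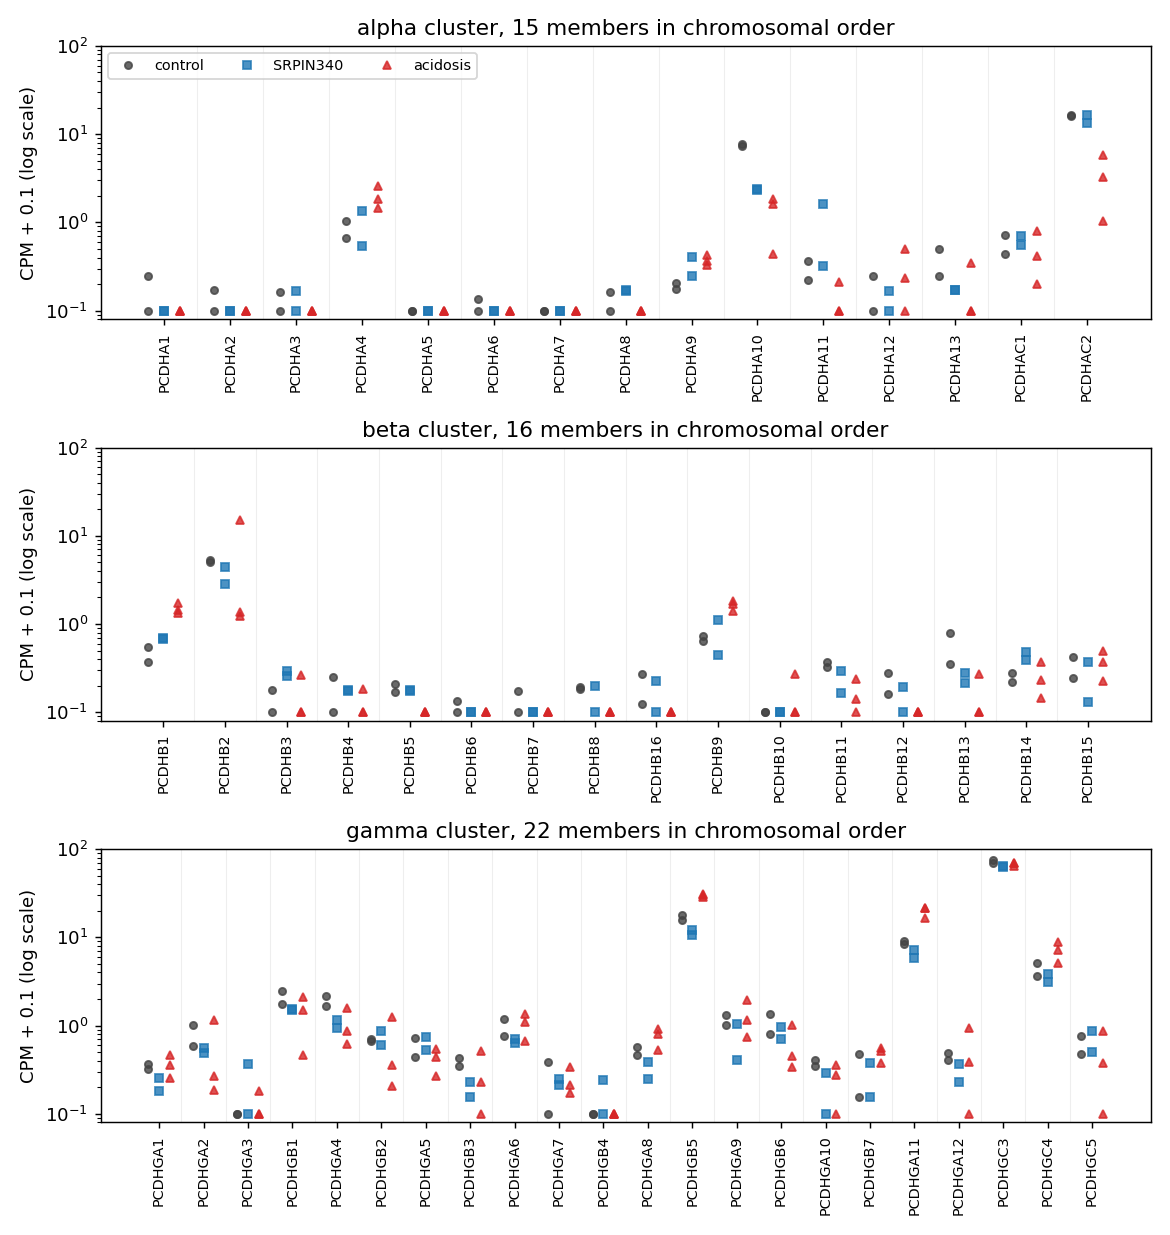
CPM of each of the 53 members in each of the 7 samples (y axis, CPM + 0.1, log scale; 1 point per sample), by cluster and in chromosomal order (x axis), with control as circles, SRPIN340 as squares and acidosis as triangles. Most members lie near the lower edge, while PCDHA10 and PCDHAC2 have acidosis points under both control points and PCDHGB5 and PCDHGA11 have them above.

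Per kilobase of canonical transcript, PCDHGC3 was the most abundant member in every group, with 15.3 CPM per kb in control. PCDHGB5 (3.53), PCDHAC2 (2.80) and PCDHGA11 (1.82) followed in control. PCDHA10 (1.37) and PCDHB2 (1.25) came next, and the control libraries of these neighbours did not overlap. PCDHGC4 was at 0.900 CPM per kb. In acidosis the order after PCDHGC3 (14.3) was PCDHGB5 (6.30) and PCDHGA11 (4.14), then PCDHGC4 (1.47) and PCDHB2 (1.40), whose libraries overlap. PCDHAC2, the third in control, was the sixth at 0.571 CPM per kb, and PCDHA10 was at 0.221. Without acidosis replicate 2, PCDHB2 averaged 0.293 and PCDHAC2 0.363 CPM per kb, so the order of this pair rests on that library.

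Calls needed 2 things, an adjusted p (Benjamini-Hochberg, over all tested genes) below 0.05 in the quasi-likelihood test of edgeR and a log2 fold change beyond 1 in either direction. In acidosis against control, 2 of the 22 tested members were called higher (PCDHB1 and PCDHGA11) and 2 lower (PCDHA10 and PCDHAC2), where 14.4% of all tested genes were called higher and 19.1% lower. The members' shares were thus not above the background in either direction. Both lower calls were alpha genes, and the alpha cluster had no higher call. The median log2 fold change of tested members was -1.35 in the alpha cluster (4 genes), 1.37 in the beta cluster (3 genes) and -0.09 in the gamma cluster (15 genes), beside -0.05 for all genes. At an unadjusted p under 0.05, 6 members were higher and 2 lower, where 34.1% of all tested genes were higher and 35.8% lower, so neither count was above the background. DESeq2 called the same 4 members.

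With SRPIN340, no member was called in either direction by edgeR, where 0.128% of all tested genes were called higher and 0.195% lower. At an unadjusted p under 0.05, 0 members were higher and 3 lower (PCDHA10, PCDHGB5 and PCDHGA11), where 8.15% of all tested genes were higher and 9.48% lower. DESeq2 called 1 member, PCDHA10. The log2 fold change was negative for 15 of the 22 tested members, among them 12 of 15 gamma genes. Its median was 0.02 in the alpha, 0.21 in the beta and -0.48 in the gamma cluster, beside 0.00243 for all genes. Acidosis and SRPIN340 share the same 2 control samples, so their differences from control are not independent of each other.

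**Figure D3:**
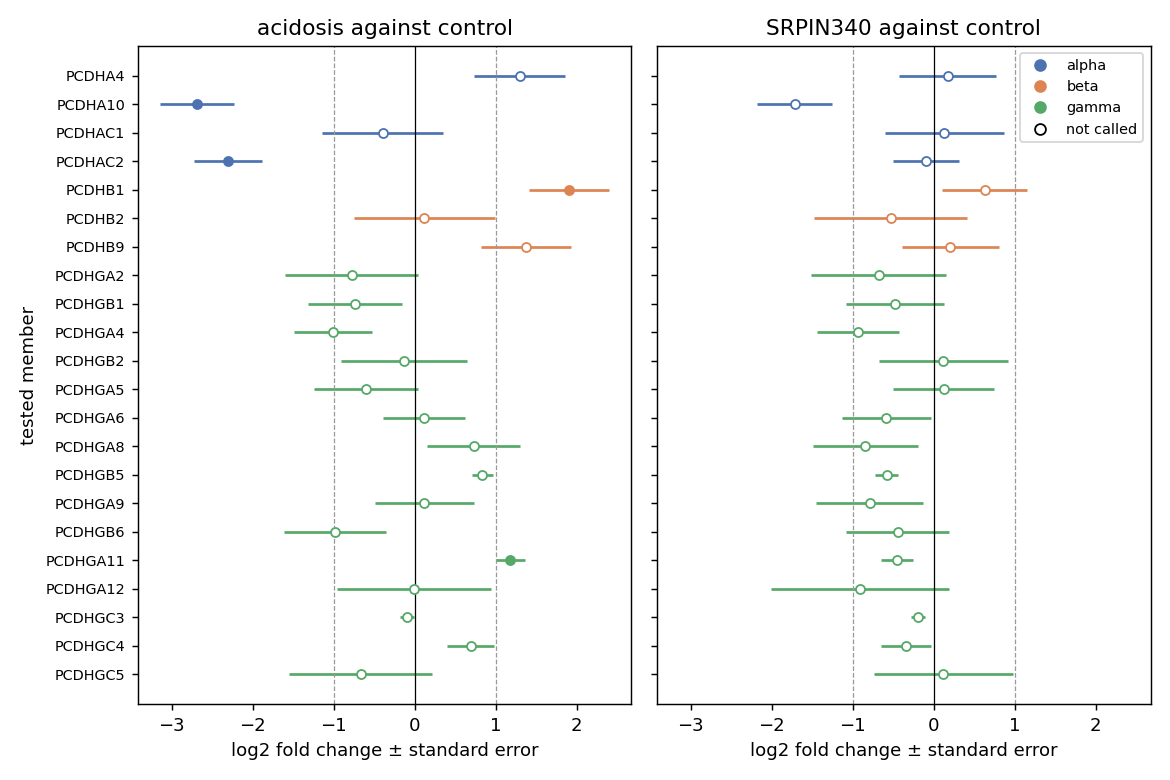
Log2 fold change with standard error (x axis) of the 22 tested members (y axis) in acidosis against control (left) and SRPIN340 against control (right), coloured by cluster, with filled points for called members and dashed lines at -1 and 1. In acidosis PCDHA10 (-2.68) and PCDHAC2 (-2.30) are the called points to the left and PCDHB1 (1.91) and PCDHGA11 (1.18) those to the right, and no point is filled for SRPIN340.

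In the alpha cluster, acidosis lowered both genes that make up most of its expression. PCDHAC2, a C-type gene, was at 15.8 and 16.2 CPM in control, 16.6 and 13.4 with SRPIN340, and 3.21, 5.65 and 0.950 in acidosis. All acidosis libraries lay under all others, and the SRPIN340 libraries lay on either side of the control. The log2 fold change was -2.30 ± 0.418 (SE) in acidosis (edgeR adjusted p = 0.000812) and -0.09 ± 0.408 with SRPIN340 (edgeR adjusted p = 0.941). Against SRPIN340, acidosis differed by -2.21 (edgeR adjusted p = 0.00106). The estimated counts behind the acidosis values were 54.0, 61.5 and 11.0.

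PCDHA10, an alternate alpha gene, was at 7.55 and 7.30 CPM in control, 2.28 and 2.24 with SRPIN340, and 0.341, 1.72 and 1.52 in acidosis. The 3 groups did not overlap, with control highest and acidosis lowest. It fell by 2.68 on the log2 scale in acidosis (SE 0.457, edgeR adjusted p = 0.000538). With SRPIN340 its log2 fold change was -1.71 ± 0.463, which missed the limit when all 7 samples shared 1 estimate of the spread (edgeR adjusted p = 0.0934). The same change passed when the fit held only control and SRPIN340 (edgeR adjusted p = 0.0115), without acidosis replicate 1 (edgeR adjusted p = 0.021) and with DESeq2 (adjusted p = 0.0232). The difference between acidosis and SRPIN340 was -0.97 ± 0.482 and was not called (edgeR adjusted p = 0.101). Both treatments thus had lower values of PCDHA10, whereas PCDHAC2 was called lower in acidosis against either other group.

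The other alpha genes stayed low. PCDHA4 was at 0.935 and 0.573 CPM in control, 0.443 and 1.25 with SRPIN340, and 1.72, 2.50 and 1.34 in acidosis, which lay above all other libraries. Its log2 fold change in acidosis was 1.30 ± 0.561 and missed the limit (edgeR adjusted p = 0.0644), but not in a fit of control and acidosis alone (edgeR adjusted p = 0.0479). PCDHAC1, the other alpha C-type gene, ranged from 0.0994 to 0.703 CPM over all 7 libraries with overlapping groups (acidosis log2 fold change -0.39, edgeR adjusted p = 0.659). PCDHA11, chosen after its values were seen, had 41.6 counts in SRPIN340 replicate 1 and 5.9 in replicate 2, against 3.3 and 7.5 in control and at most 1.3 in acidosis. It did not pass the filter.

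Summed over its 15 members, the alpha cluster was at 25.6 and 25.4 CPM in control, 21.7 and 18.3 with SRPIN340, and 6.48, 10.8 and 4.49 in acidosis. The groups did not overlap, and the acidosis mean was 0.285 times the control mean, a log2 ratio of -1.81. Without PCDHA10 and PCDHAC2 the other 13 members summed to 2.05 ± 0.241 CPM in control (SD, n = 2) and 2.80 ± 0.733 in acidosis (SD, n = 3), with overlapping libraries. The fall of the sum therefore lay in those 2 genes. PCDHA4 went from 2.95% of the alpha sum in control to 26.5% in acidosis.

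**Figure D4:**
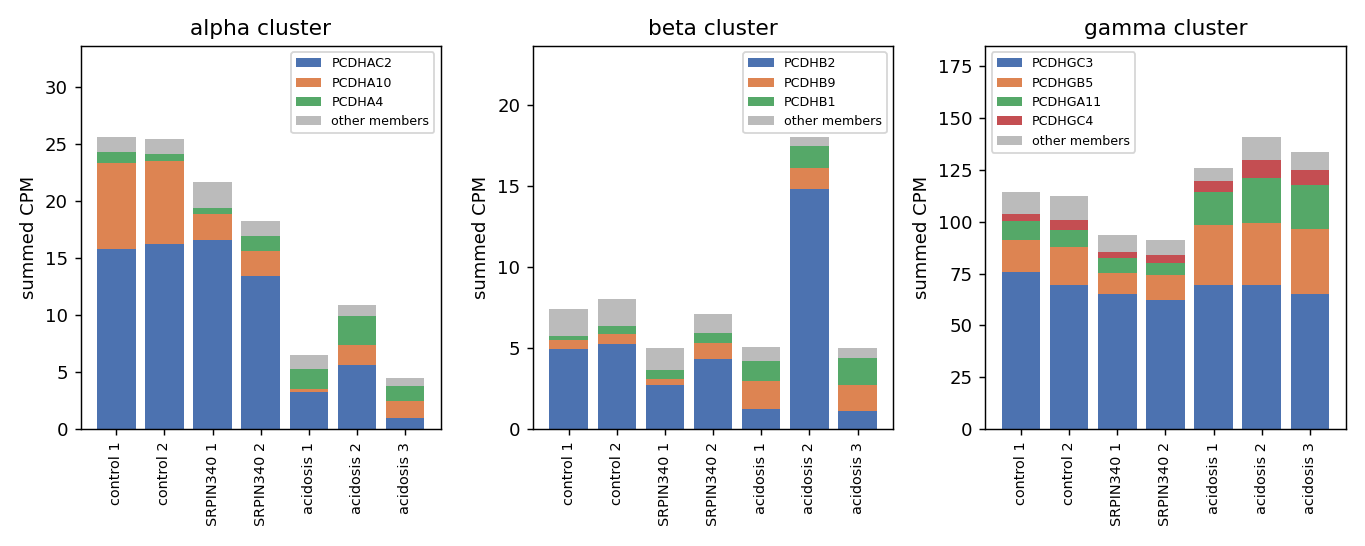
Summed CPM (y axis) of the alpha, beta and gamma cluster in each of the 7 samples (x axis), each bar split into the leading members and all other members of the cluster. The alpha bars fall from 25.6 and 25.4 in control to between 4.49 and 10.8 in acidosis, the second acidosis library has the tallest beta bar (18.0), and the PCDHGB5 and PCDHGA11 segments widen in acidosis.

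The beta cluster held the lowest sum in control and with SRPIN340, while in acidosis its mean of 9.36 CPM lay above the alpha mean of 7.27 and the libraries of both clusters overlapped. PCDHB1, the first gene of the cluster, was at 0.274 and 0.445 CPM in control, 0.581 and 0.586 with SRPIN340, and 1.24, 1.35 and 1.64 in acidosis. The groups did not overlap, at 7.6 to 20.8 counts per library. The log2 fold change was 1.91 ± 0.493 in acidosis (edgeR adjusted p = 0.00664) and 0.63 ± 0.527 with SRPIN340 (edgeR adjusted p = 0.601). Without control replicate 1 the acidosis call was lost (log2 fold change 1.61, edgeR adjusted p = 0.0734). It is also the beta gene whose words are most its own (92.0%).

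PCDHB2 differed more within acidosis than between groups. It was at 4.94 and 5.26 CPM in control, 2.74 and 4.31 with SRPIN340, and 1.26, 14.8 and 1.14 in acidosis. Acidosis replicate 2, with 161.5 counts, was the highest of all libraries, and the other two acidosis libraries, with 21.2 and 13.3 counts, were the lowest. The log2 fold change with all samples was 0.12 ± 0.872 (edgeR adjusted p = 0.91). Without acidosis replicate 2 it was -2.09 (edgeR adjusted p = 0.000515). No direction can be given for PCDHB2 from these samples, and the part of the words it shares with PCDHB1-AS1 was not tested.

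PCDHB9 was at 0.550 and 0.623 CPM in control, 0.345 and 1.01 with SRPIN340, and 1.72, 1.31 and 1.59 in acidosis, above all other libraries. Its log2 fold change of 1.37 ± 0.555 missed the limit narrowly (edgeR adjusted p = 0.0513) and passed under RLE scaling (edgeR adjusted p = 0.0482) and without SRPIN340 replicate 1 or 2 (edgeR adjusted p = 0.0379 and 0.0452). The other 13 beta genes were not tested. The beta sum was 7.40 and 8.01 CPM in control, 5.01 and 7.08 with SRPIN340, and 5.04, 18.0 and 5.01 in acidosis, and its acidosis range follows PCDHB2. Without PCDHB2 the sum was 2.61 ± 0.207 CPM in control (SD, n = 2), 2.52 ± 0.350 with SRPIN340 (SD, n = 2) and 3.62 ± 0.362 in acidosis (SD, n = 3). Beta genes have 1 exon, and of 368 tested genes of 1 exon outside the clusters 27.7% were called higher and 23.4% lower in acidosis. With 3 beta genes tested, 1 higher and 0 lower, the cluster cannot be set apart from these.

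The gamma cluster held most of the expression, with 114 and 113 of 147 and 146 CPM for all 53 members in control. PCDHGC3, its leading C-type gene, was at 75.6 and 69.7 CPM in control, 65.0 and 62.2 with SRPIN340, and 69.3, 69.7 and 65.1 in acidosis. The acidosis and control libraries overlapped. The log2 fold change was -0.09 ± 0.0834 in acidosis (edgeR adjusted p = 0.343) and -0.19 ± 0.0904 with SRPIN340 (edgeR adjusted p = 0.309), at 757.1 to 2099.7 counts per library. With total-count scaling the acidosis value was -0.67 (edgeR adjusted p = 5.8e-05), close to the all-gene median of -0.63 under that scaling. The standard error was the smallest among the tested members.

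PCDHGA11, an alternate gene of the A class, was at 9.03 and 8.37 CPM in control, 7.01 and 5.74 with SRPIN340, and 16.3, 21.5 and 21.6 in acidosis. Acidosis was highest and SRPIN340 lowest, with no overlap. It rose by 1.18 ± 0.181 on the log2 scale in acidosis (edgeR adjusted p = 0.000264), and its log2 fold change with SRPIN340 was -0.45 ± 0.196 (edgeR adjusted p = 0.276). With total-count scaling the acidosis value was 0.61, under the fold limit, beside an all-gene median of -0.63.

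PCDHGB5, an alternate gene of the B class, had 40.4% of its words in no other gene, beside a gamma median of 46.95%. It showed the same order of groups as PCDHGA11. It was at 15.7 and 17.9 CPM in control, 10.4 and 12.1 with SRPIN340, and 28.9, 29.8 and 31.2 in acidosis. Its log2 fold change in acidosis was 0.83 ± 0.130, which passed the adjusted p (edgeR, 0.000304) but not the fold limit. With total-count scaling it was 0.26 and passed neither limit (edgeR adjusted p = 0.101). With SRPIN340 it was -0.58 ± 0.142 (edgeR adjusted p = 0.0698). PCDHGC4, a C-type gene, was at 3.57 and 5.01 CPM in control, 3.05 and 3.74 with SRPIN340, and 5.07, 8.84 and 7.15 in acidosis (log2 fold change 0.69 ± 0.289, edgeR adjusted p = 0.057). PCDHGC5, the last gene, ranged from 0 to 0.774 CPM with overlapping groups (acidosis log2 fold change -0.66, edgeR adjusted p = 0.527).

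The other 10 tested gamma genes were not called against control, with log2 fold changes from -1.01 (PCDHGA4, edgeR adjusted p = 0.0898) to 0.73 (PCDHGA8, edgeR adjusted p = 0.285) in acidosis and from -0.93 (PCDHGA4, edgeR adjusted p = 0.388) to 0.13 (PCDHGA5, edgeR adjusted p = 0.949) with SRPIN340. All gamma members outside PCDHGC3, PCDHGB5, PCDHGA11 and PCDHGC4 together summed to 10.4 and 11.7 CPM in control, 7.98 and 7.47 with SRPIN340, and 6.25, 11.0 and 8.52 in acidosis.

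The gamma sum was 114 and 113 CPM in control, 93.4 and 91.2 with SRPIN340, and 126, 141 and 134 in acidosis, so the groups did not overlap. The log2 ratio to control was 0.23 in acidosis and -0.30 with SRPIN340. With total-count scaling the acidosis ratio turned to -0.34, beside an all-gene median of -0.63. By class, the 12 PCDHGA genes summed to a mean of 15.1 CPM in control and 25.2 in acidosis, and the 7 PCDHGB genes to 20.9 and 32.8. Each of these differences lay in 1 gene. Without PCDHGA11 the other 11 PCDHGA genes summed to 6.40 CPM in control and 5.40 in acidosis, and without PCDHGB5 the other 6 PCDHGB genes to 4.09 and 2.83. The 3 PCDHGC genes were at 77.5 and 75.4 CPM. The make-up of the cluster, which no scaling alters, shifted accordingly. PCDHGC3 held 66.2% and 61.9% of the gamma sum in control, 69.6% and 68.1% with SRPIN340, and 55.1%, 49.5% and 48.7% in acidosis. PCDHGB5 held 14.8% in control and 22.5% in acidosis, and PCDHGA11 7.67% and 14.8%.

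Set directly against SRPIN340, acidosis had 5 members called higher (PCDHB1, PCDHGA8, PCDHGB5, PCDHGA11 and PCDHGC4) and 1 lower (PCDHAC2), where 14.9% of all tested genes were called higher and 19.7% lower. The log2 difference was 1.63 ± 0.186 for PCDHGA11 (edgeR adjusted p = 3.41e-05) and 1.42 ± 0.135 for PCDHGB5 (edgeR adjusted p = 9.94e-06). PCDHGC4 differed by 1.03 ± 0.295 (edgeR adjusted p = 0.0108), PCDHB1 by 1.28 ± 0.472 (edgeR adjusted p = 0.0355) and PCDHGA8 by 1.57 ± 0.618 (edgeR adjusted p = 0.0454). PCDHGA8 rested on 4.1 to 12.0 counts in these libraries and kept its call only without acidosis replicate 2 (edgeR adjusted p from 0.0359 to 0.27 over the 7 libraries left out in turn). PCDHB1 lost its call when any library but acidosis replicate 1 was left out (edgeR adjusted p from 0.0508 to 0.166). PCDHGC4 fell under a limit without SRPIN340 replicate 1 (0.89, edgeR adjusted p = 0.0823) or acidosis replicate 2 (0.84, edgeR adjusted p = 0.0299). PCDHGC3 differed by 0.10 ± 0.084 (edgeR adjusted p = 0.325). For PCDHGA11 and PCDHGB5 the control libraries lay between those of acidosis and SRPIN340.

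The gene between the beta and gamma clusters, TAF7, which encodes a subunit of the TFIID complex, was at 115 and 109 CPM in control, 96.8 and 89.4 with SRPIN340, and 229, 240 and 237 in acidosis. It rose by 1.07 on the log2 scale in acidosis (edgeR adjusted p = 9.43e-07), or 0.49 with total-count scaling. SLC25A2, the other gene there, was at most at 0.0827 CPM and was not tested. Of 16 tested neighbours on 5q31, 1 was called higher and 3 lower in acidosis, where 14.4% of all tested genes were called higher and 19.1% lower. Neither share was above that background. The neighbours' median log2 fold change was -0.17, beside -0.05 for all genes. Those lower were RELL2 (-1.86), ARAP3 (-1.58) and DND1 (-1.51). DND1 rested on 7.6, 1.9 and 6.7 counts in acidosis, against 25.0 and 44.1 in control.

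Genes known to act on the clusters were examined as lists, whose counts are to be read against the 14.4% of all tested genes called higher and 19.1% called lower in acidosis. Of 12 architectural factors (CTCF, cohesin and its regulators), 0 were called higher and 2 lower in acidosis, a share of lower calls not above that background. Their median log2 fold change was -0.57, beside -0.05 for all genes. Total-count scaling gave 7 lower calls, under an all-gene median of -0.63. The 19.1% comes from TMM scaling and is no background for those 7. PDS5B fell by 2.50 and WAPL by 1.00 (edgeR adjusted p = 1.02e-07 and 1.43e-06), both cohesin regulators. CTCF was at 125 and 126 CPM in control, 96.4 and 104 with SRPIN340, and 71.1, 77.5 and 58.5 in acidosis. Its log2 fold change of -0.86 ± 0.109 passed the adjusted p (edgeR, 7.16e-05) but not the fold limit. RAD21, a cohesin subunit, had -0.33 ± 0.0703 (edgeR adjusted p = 0.00217). Of 13 silencing factors, 0 were called higher and 4 lower (median -0.19). That share of lower calls was above the background, and the difference was not tested. DNMT3B, a DNA methyltransferase, fell by 1.36 and EHMT2, a histone H3 lysine methyltransferase, by 1.25, and KDM1A (-1.09) and LRIF1 (-1.04) were the other lower calls. SMCHD1, a repressor known to act at these clusters, had -0.40 ± 0.109 (edgeR adjusted p = 0.0086), under the fold limit.

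Among 10 tested non-clustered protocadherins, 1 was called higher and 3 lower in acidosis, with a median log2 fold change of -0.49. PCDH20 fell by 2.98 and PCDH19 by 2.18 (edgeR adjusted p = 8.55e-06 and 8.1e-05). PCDH18 (-1.30) was also lower, and PCDH8 (1.87), at 0.353 CPM in control and 1.32 in acidosis, was higher. Of 17 cytoplasmic partners and processing enzymes, 0 were called higher and 2 lower (median 0.33), neither share above that of all tested genes. RET, a receptor kinase that binds protocadherins, fell by 2.75 and PTK2B, a focal adhesion kinase of the family that clustered protocadherins inhibit, by 1.39. The acidosis libraries held 8.0, 2.0 and 1.3 counts of RET, near or under the floor of 3 counts, against 53.6 and 49.8 in control. With SRPIN340 none of these lists held a called gene in edgeR's test, and their medians lay between -0.12 and 0.01. With total-count scaling none of these lists or of the neighbours kept a higher call in acidosis. The median of the partners turned to -0.25, beside an all-gene median of -0.63 under that scaling. What these changes have to do with those of the clusters was not tested.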

How the data were processed

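RNA of 7 HEK-293 samples was captured by poly(A), and paired-end reads were trimmed by the authors with Trimmomatic 0.39 and Trim Galore 0.6.6, quantified with Salmon 1.5.1 (Gencode transcriptome of GRCh38.p13) and aggregated by gene with tximport. The authors deposited these estimated counts without normalization between samples; the tximport option is not given in the sources used here. The methods name replicates within each biological repeat, and the deposited table has 1 column per sample.

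For the tests, which ran in edgeR 4.0.16 under R 4.3.3, each estimated count was rounded (TMM, filterByExpr, 14863 genes, all 7 samples in 1 fit, Benjamini-Hochberg adjustment). Limits were an adjusted p of 0.05 and a log2 fold change of 1, and 3 counts or fewer were taken as the floor. Intervals were not given, and standard errors come from the test statistic. In simulated counts of acidosis against control, edgeR recovered 94.5% of 200 genes changed by a fold of 4, with 6 false calls among 14863 genes. The simulation gave every gene the same spread and changed only those 200 genes, as many up as down. In the data 2145 genes were called higher and 2840 lower, so these rates need not hold there. Replicates differed beyond sampling noise (chi-square per degree of freedom 6.886 to 12.26), so each counted as 1 sample.

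Transcripts were taken from GENCODE release 44 (1 table row was unmatched) and promoters from RefSeq. Alternatives were DESeq2 1.42.0, RLE or total-count scaling, no filter, only the 2 groups compared, a replicate block, no fold limit and each replicate left out. Named were members called, the 3 highest of each cluster by mean CPM, the C-type genes, the genes between the beta and gamma clusters and, of each list, CTCF, RAD21, SMCHD1 and up to 2 called genes with the largest change in acidosis, with the other called genes of the lists and PCDHA11 added after their values were seen. Members and lists were chosen with earlier results of these data known. A further gene of the silencing list is not reported here, and the counts and median of that list leave it out. Python 3.11.15 and matplotlib 3.10.9 drew the figures.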

Additional observations from a re-analysis of the deposited data

How the results depend on the processing

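The 4 members called in acidosis kept their direction under every alternative. PCDHA10 (-3.25 to -2.17) and PCDHAC2 (-2.87 to -1.89) stayed called in each, while PCDHB1 lost its call without control replicate 1 and PCDHGA11 with total-count scaling. In acidosis against control, the higher calls became 1 alpha and 2 beta members in a fit of the 2 groups alone, 2 beta members with RLE scaling, and 2 gamma members with no fold limit. With total-count scaling, 0 gamma members were called higher and 2 lower (PCDHGA4 and PCDHGB6), the log2 ratio of the beta sum was -0.287 and that of the gamma sum -0.34 (SRPIN340, gamma, -0.257; acidosis against SRPIN340, gamma, -0.0827), PCDHB2 was at -0.44 in acidosis and PCDHGC3 at -0.67 in acidosis and -0.52 against SRPIN340. The all-gene median under total-count scaling was -0.63 in acidosis against control. With SRPIN340, 1 alpha member (PCDHA10) was called lower by DESeq2 and in a fit of the 2 groups alone.

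In acidosis against SRPIN340, 0 beta members were called higher with DESeq2, total-count scaling or no filter. The alpha members called lower were 2 with total-count scaling and 2 with no filter, and 1 gamma member was called higher with total-count scaling. Whether replicate numbers pair the samples could not be decided. Same-numbered samples' deviations correlated between -0.146 and 0.0715, and differently numbered ones between -0.0715 and 0.146. In a group of 2 the deviations mirror each other, so these correlations are tied to one another. With the replicate block, 0 beta and 2 gamma members were called higher in acidosis against SRPIN340 and PCDHAC1 turned to 0.0645 in acidosis, and no other count of calls moved.

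Leaving out each replicate in turn, the calls in acidosis against control ranged from 0 to 2 (beta, higher), 0 to 1 (beta, lower; PCDHB13 without control replicate 1, PCDHB2 without acidosis replicate 2) and 0 to 2 (gamma, lower; PCDHGA2 and PCDHGA4 without acidosis replicate 2, PCDHGB6 without acidosis replicate 3), and with SRPIN340 from 0 to 1 (alpha, lower). In acidosis against SRPIN340 they ranged from 0 to 1 (alpha, higher), 1 to 2 (alpha, lower), 0 to 1 (beta, higher), 0 to 1 (beta, lower) and 2 to 3 (gamma, higher; 4 with all samples). The log2 ratio of the beta sum ranged from -0.618 to 0.581 against control and from -0.267 to 0.932 against SRPIN340, lowest without acidosis replicate 2. Log2 fold changes in acidosis ranged from -2.09 to 0.63 for PCDHB2 (-1.56 to 1.16 against SRPIN340) and from -1.20 to 0.14 for PCDHAC1. With SRPIN340 they ranged from -0.75 to 0.74 for PCDHA4, -0.27 to 0.68 for PCDHAC1, -0.254 to 0.0521 for PCDHAC2, -0.81 to 0.80 for PCDHB9 and -0.39 to 0.58 for PCDHGC5. Where a change of samples or filter altered a count, the cause was not tested. The 2 shallow acidosis libraries and counts under 30 for most members limit what could be detected.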
